A study of Mus musculus with 21 samples.

Results

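The heat shock proteins described here are 10 chaperone genes, listed by symbol, of which 9 had a probe set that the platform annotation ties to 1 symbol. They are Dnajb1, Dnaja1, Hspa1a, Hspa1b, Hspa8, Hsph1, Hsp90aa1, Hspd1 and Hspe1, out of 12393 genes measured, and Hsp90ab1 was not analysed here. Each gene was read from its brightest probe set on average over the 21 arrays, and its other probe sets, which bring the total to 20, served as a check. Messenger RNA was measured on an Affymetrix mouse array in the mouse line RAW 264.7, tumour-derived cells that resemble macrophages. They met amorphous silica for 2 h in medium without serum, either particles of 10 nm at a low (5 µg/ml), mid (20 µg/ml) or high (50 µg/ml) dose, or of 500 nm at a low (250 µg/ml), mid (500 µg/ml) or high (1000 µg/ml) dose. With the untreated control this made 7 groups of 3 arrays (21). The labels give neither the medium of the untreated cells nor whether replicates were separate cultures. The spread behind each p-value is that among arrays within groups, pooled over the 7 groups, and could be technical. Dose over diameter served as a nominal surface area, assuming equal density. In units of the low dose it was 1, 4 and 10 across the 10 nm doses, and 1, 2 and 4 across the 500 nm doses. Nominal area was thus matched between both low doses, and between 10 nm mid and 500 nm high.

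Heat shock proteins keep other proteins folded and help refold or discard damaged ones. HSP70 proteins bind exposed stretches of a client, J-domain proteins (HSP40) bring them clients and trigger their ATP hydrolysis, HSP110 proteins exchange the nucleotide, and HSP90 acts later on signalling proteins. When damaged proteins accumulate, the transcription factor HSF1 is released from chaperones, binds inverted repeats of the unit GAA (heat shock elements) in promoters and induces the stress-inducible members, with Hspa1a, Hspa1b and Dnajb1 among the classic targets, while Hspa8 and Hsp90ab1 are mainly constitutive. Although listed with cytosolic chaperones, Hspd1 and Hspe1 encode the mitochondrial chaperonin HSP60 and its partner HSP10.

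The promoters were searched for exact copies of heat shock element letters close to the start. RefSeq promoter sequences (GRCm38.p6) were matched by symbol for 7 of the 10 genes, 12 promoters in all. Hspa8, Hsp90aa1 and Hsp90ab1 had none matched. Dnaja1 and Hspd1 also had promoters without a match to the letters below. In the 250 bases before the start, a pair of inverted units, GAANNTTC or TTCNNGAA, each of which reads the same on both strands, was present in 6 of the 7 genes, against 12.8% of all 32851 promoters and 14.5% of all 27025 genes. The longer form, in which NN and a further inverted unit follow the pair so that it holds 3 units, was present in 2 of the 7 genes, against 0.466% of all promoters. Matches are shown with 5 flanking bases, the matched letters in capitals, to set members that moved in these arrays beside others that did not.
Hspa1a, chr17:34972248-34972265, minus strand: tgctgGAAGATTCctggc
Hspa1b, chr17:34959330-34959347, minus strand: tgctgGAAGATTCctggc
Dnaja1, chr4:40722339-40722356, plus strand: ctctaGAAAATTCtacga
Hsph1, chr5:149636357-149636374, minus strand: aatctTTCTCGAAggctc
Hspd1, chr1:55088054-55088081, minus strand: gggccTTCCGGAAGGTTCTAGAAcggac
Hspe1, chr1:55088054-55088081, plus strand: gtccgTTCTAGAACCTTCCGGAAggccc
The last 2 lines are the same bases read from either strand, since Hspd1 and Hspe1 lie head to head and share a promoter. The upstream stretches of Hspa1a and Hspa1b were identical at 247 of 250 bases. For Dnajb1 no exact match was found in either of its promoters in this window. That says nothing of sites elsewhere, or of elements in the window that depart from these letters.

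All 9 genes had a value on every array. Of the markers used to check the labelled cell type, 8 of 10 macrophage genes lay above the median gene level of 6.66 (log2), with Itgam at 6.02 and Mrc1 at 3.73 below it, and 0 of 4 T cell, 0 of 3 B cell, 0 of 5 fibroblast and 0 of 4 epithelial genes did. The summed level of the macrophage markers ran from 15.40 to 15.58 over the groups. No pair of arrays was identical. As a log2 measure of RNA degradation, the excess of 3 prime over 5 prime signal in the Gapdh and actin control probe sets was 1.15 in untreated replicate 3 and 0.95 in replicate 3 of the 10 nm high dose, and between 0.14 and 0.55 on the other 19 arrays. Those 2 arrays were the highest of their groups for the brightest probe sets of Dnajb1, Hspa1b and Hspa8. They were the lowest of their groups for the other Dnajb1 probe set (7.80 and 8.97) and for Hspa8 probe sets 1420622_a_at (12.22 and 12.37) and 1420623_x_at (13.44 and 13.43). The part of RNA quality in the results was not tested, and values without every replicate 3 array, a comparison chosen after seeing the data, are given beside the results they touch.

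A small part of the group changed. Across the 7 groups 3 of the 9 genes differed by limma's F test at an adjusted p under 0.05 (Dnajb1, Hspa1b and Hspa8), where 16.2% of all genes did. The J-domain gene Dnajb1 rose with 10 nm silica, 1.57-fold at the mid and 1.79-fold at the high dose. The constitutive HSP70 gene Hspa8 rose 1.26-fold at the 10 nm high dose by its brightest probe set. The stress-inducible Hspa1b was 2.12-fold higher at the high dose of 10 nm than of 500 nm silica. The HSP90, HSP110 and chaperonin genes passed the test in no comparison.

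**Figure D1:**
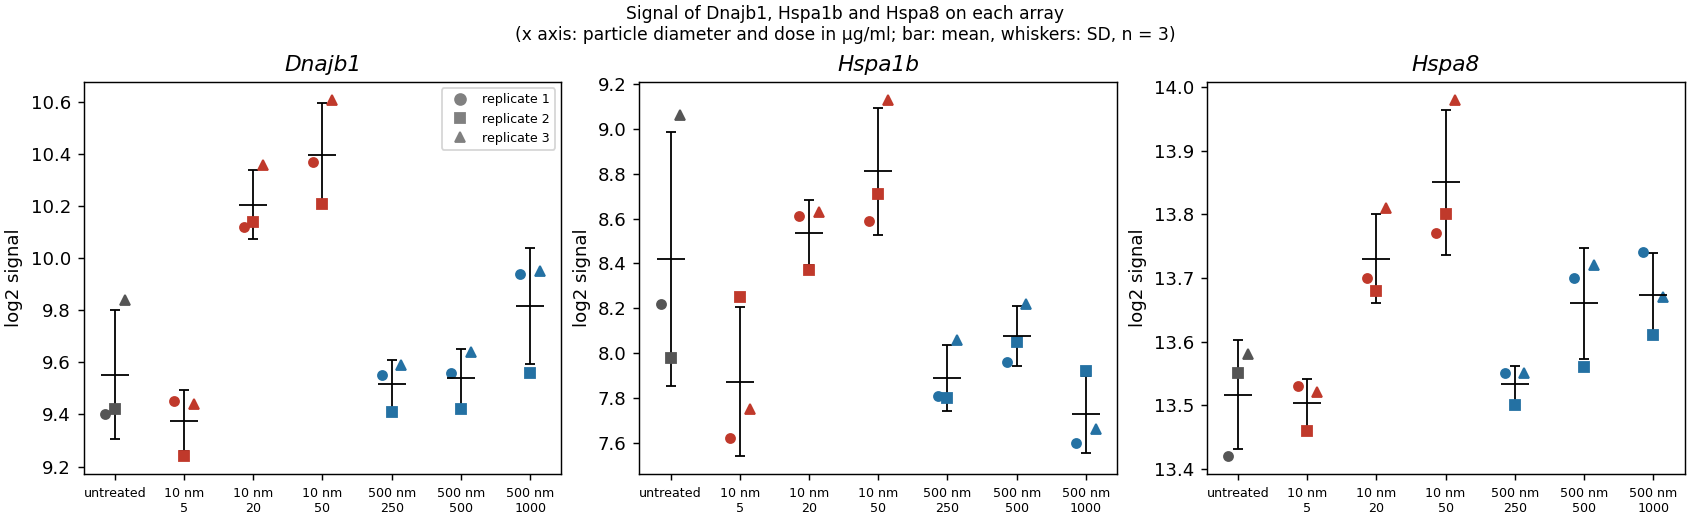
Log2 signal (y axis) of Dnajb1, Hspa1b and Hspa8 on each of the 21 arrays, by particle diameter and dose in µg/ml (x axis), with the group mean as a bar, the SD as whiskers (n = 3) and the marker shape giving the replicate number. Dnajb1 lies highest at 20 and 50 µg/ml of 10 nm silica, between 10.12 and 10.61, and replicate 3 is its highest array in 6 of the 7 groups.

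Dnajb1 encodes the main stress-inducible J-domain partner of cytosolic HSP70. Its log2 signal on the untreated arrays was 9.40, 9.42 and 9.84 in the order of replicates 1 to 3. With 10 nm silica it was 9.45, 9.24 and 9.44 at 5 µg/ml, 10.12, 10.14 and 10.36 at 20 µg/ml, and 10.37, 10.21 and 10.61 at 50 µg/ml. All 6 arrays at 20 and 50 µg/ml lay above all 3 untreated arrays, and those at 5 µg/ml overlapped them. With 500 nm silica the arrays read 9.55, 9.41 and 9.59 at 250 µg/ml, 9.56, 9.42 and 9.64 at 500 µg/ml, and 9.94, 9.56 and 9.95 at 1000 µg/ml, each group overlapping the untreated one. The group means were 9.55 ± 0.25 untreated, 9.38 ± 0.12, 10.21 ± 0.13 and 10.40 ± 0.20 over the rising 10 nm doses, and 9.52 ± 0.09, 9.54 ± 0.11 and 9.82 ± 0.22 over the 500 nm doses (SD, n = 3 arrays).

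Against untreated cells, Dnajb1 rose by 0.65 ± 0.14 at 20 µg/ml (log2 difference ± SE, limma adjusted p = 0.0034) and by 0.84 ± 0.14 at 50 µg/ml of 10 nm silica (adjusted p = 0.000241, 95% confidence interval 0.55 to 1.13). At 1000 µg/ml of 500 nm silica the difference was 0.26 ± 0.14 (adjusted p = 0.22). Over the 10 nm doses its mean rose by 0.32 ± 0.04 per doubling of dose (adjusted p = 4.21e-05), and over the 500 nm doses the slope was 0.15 ± 0.07 (adjusted p = 0.233). In the order of levels the 10 nm high and mid doses came first and overlapped each other, a gap without overlap followed, and the other 5 groups each overlapped the next. A second Dnajb1 probe set, 1416756_at, gave 1.20 and 1.21 at the 10 nm mid and high doses (adjusted p = 0.0111 and 0.00728) and 0.80 at the 500 nm high dose (adjusted p = 0.0751). Without every replicate 3 array the rise at the 10 nm high dose was 0.88 (adjusted p = 0.000527).

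The other J-domain gene, Dnaja1, which pairs with HSP70 in folding and import of newly made proteins, passed no test. It read 11.48, 11.46 and 11.45 on the untreated arrays and 11.62, 11.61 and 11.65 at the 500 nm high dose, and the groups did not overlap. The difference of 0.16 ± 0.08 did not pass the test (adjusted p = 0.175), but did after centring each array on its median (0.26, adjusted p = 0.0354). Under that centring the median change of all genes went from 0.04 to 0.14 at the 10 nm high dose and from 0.07 to 0.17 at the 500 nm high dose, so changes of this size depend on the scaling. At the 10 nm high dose Dnaja1 differed by 0.06 (95% confidence interval -0.10 to 0.23), while its other probe set gave -0.38 (adjusted p = 0.119).

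Hspa1b encodes the stress-inducible HSP70. It read 8.22, 7.98 and 9.06 on the untreated arrays, which was the widest spread of any group (8.42 ± 0.57, SD, n = 3). The SD within groups, pooled over the 7 groups, was 0.29. Tests of Hspa1b against untreated cells thus used a smaller spread than that of the untreated arrays. With 10 nm silica its arrays read 7.62, 8.25 and 7.75 at the low dose, 8.61, 8.37 and 8.63 at the mid dose and 8.59, 8.71 and 9.13 at the high dose. With 500 nm silica they read 7.81, 7.80 and 8.06, then 7.96, 8.05 and 8.22, then 7.60, 7.92 and 7.66 from low to high dose. All 3 arrays of the 500 nm high dose lay below all untreated arrays, while the other 5 treated groups overlapped the untreated one. Neighbours in the order of the 7 group means all overlapped, from the 10 nm high dose (8.81 ± 0.28) at the top to the 500 nm high dose (7.73 ± 0.17) at the bottom.

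At the 500 nm high dose Hspa1b fell by 0.69 on the log2 scale (SE 0.22, 1.62-fold, adjusted p = 0.037). That call rested on single arrays: without untreated replicate 3 the difference was -0.37 (adjusted p = 0.196), without replicate 1 or 3 of the 500 nm high dose it was -0.63 or -0.66 (adjusted p = 0.11 and 0.106), and without every replicate 3 array -0.34 (adjusted p = 0.239). The other Hspa1b probe sets stood at -0.29 (adjusted p = 0.311) and -0.45 (adjusted p = 0.0448) at that dose. At the 10 nm high dose the difference was 0.39 ± 0.22 (adjusted p = 0.208). It became a call at 0.71 without untreated replicate 3 (adjusted p = 0.0119). The slope over the 10 nm doses, which does not use the untreated arrays, was 0.29 ± 0.07 per doubling (adjusted p = 0.00634). The other Hspa1b probe sets gave slopes of 0.16 (adjusted p = 0.0587) and 0.20 (adjusted p = 0.00595). At the low doses Hspa1b stood at -0.55 with 10 nm and -0.53 with 500 nm silica, neither past the test (adjusted p = 0.539 and 0.707).

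Hspa1a, the near-identical neighbour of Hspa1b, had 1 probe set, at 2.59 to 3.09 on all 21 arrays, close to the lowest value of the whole table, 2.13. Its largest difference from untreated cells, 0.28 at the 500 nm low dose, did not pass the test (adjusted p = 0.615), although the groups did not overlap. Because the transcripts of the pair are so alike, the Hspa1b probe sets may also have caught Hspa1a, which was not tested.

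Hspa8 encodes HSC70, the HSP70 present in unstressed cells. Its brightest probe set read 13.42, 13.55 and 13.58 on the untreated arrays. It read 13.70, 13.68 and 13.81 at the mid and 13.77, 13.80 and 13.98 at the high dose of 10 nm silica, all above the untreated arrays. At the 500 nm high dose it read 13.74, 13.61 and 13.67, again above them. The rise at the 10 nm high dose was 0.33 ± 0.09 (adjusted p = 0.0115). Differences of 0.21 with 10 nm silica at the mid dose and of 0.16 with 500 nm silica at the high dose did not pass (adjusted p = 0.154 and 0.25). The slope over the 10 nm doses was 0.11 ± 0.03 per doubling (adjusted p = 0.0113). The call at the high dose was lost without untreated replicate 1 (0.28, adjusted p = 0.0591), without replicate 3 of that dose (0.27, adjusted p = 0.0623) and without every replicate 3 array (0.30, adjusted p = 0.0574). The slope was lost without low-dose replicate 2 (adjusted p = 0.0544) or high-dose replicate 3 (adjusted p = 0.0502), and the difference across the 7 groups (adjusted p = 0.0448) was lost in 19 of 21 fits that each left out 1 array.

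One of the 4 Hspa8 probe sets behaved unlike the rest. Probe set 1431182_at, annotated to Hspa8 alone, read 7.03, 6.96 and 7.04 untreated, 9.53, 9.45 and 9.47 at the 10 nm mid dose and 9.72, 9.78 and 9.92 at the 10 nm high dose. Its rises were 2.47 ± 0.15 and 2.80 ± 0.15 (limma over all 22690 probe sets, adjusted p = 1.96e-09 and 3.35e-10). At the 500 nm high dose it read 7.61, 7.67 and 7.66, a rise of 0.64 ± 0.15 (adjusted p = 0.00627). Its mid and high 10 nm arrays lay above every other array, and the 500 nm high dose lay above the untreated group. With 1 array left out at a time the rise at the 10 nm high dose stayed between 2.74 and 2.84 and that at the 500 nm high dose between 0.62 and 0.66, with adjusted p no higher than 8.73e-09 and 0.0247.
The remaining Hspa8 probe sets gave 0.30 (adjusted p = 0.0962) and 0.13 (adjusted p = 0.37) at the 10 nm high dose. The sequence that 1431182_at detects was not analysed here, so whether its signal belongs to the main Hspa8 transcript was not tested.

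**Figure D2:**
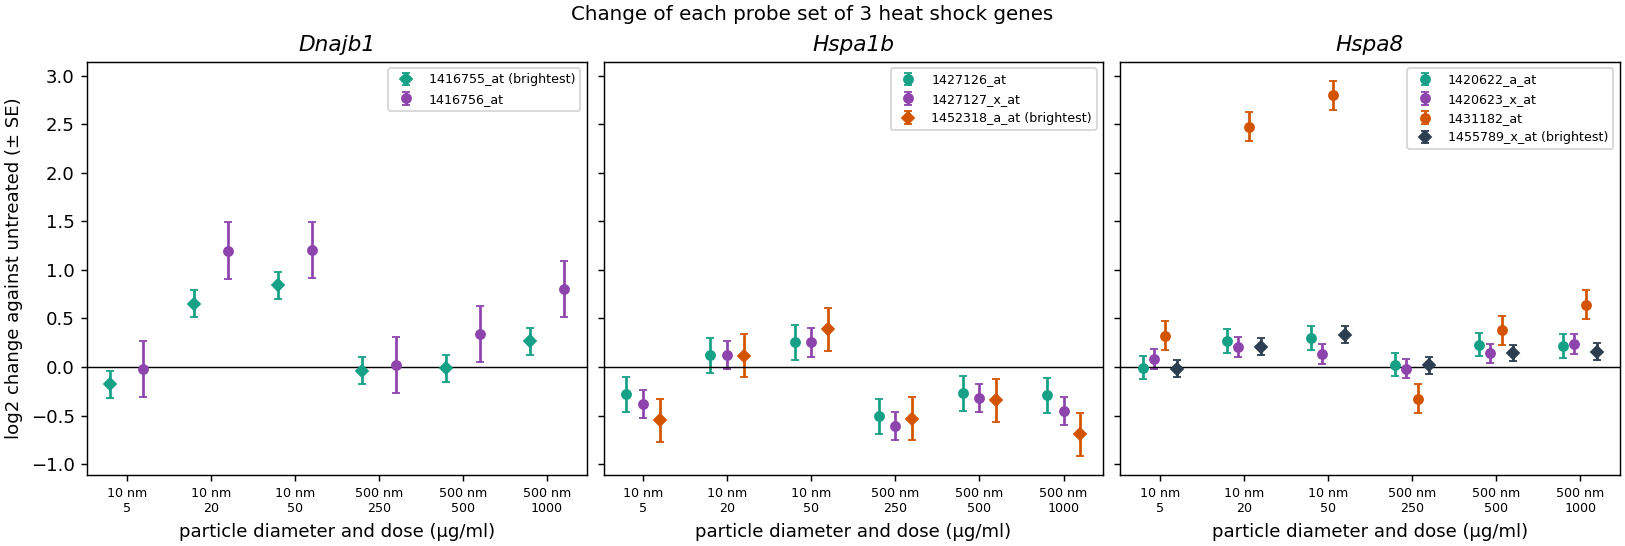
Log2 change against untreated cells (y axis, ± SE) of every probe set of Dnajb1, Hspa1b and Hspa8 at each particle diameter and dose in µg/ml (x axis), with diamonds for the probe set of highest mean. The Hspa8 probe set 1431182_at stands at 2.47 and 2.80 at 20 and 50 µg/ml of 10 nm silica, where the other 3 lie between 0.13 and 0.33.

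Hsph1, the HSP110 that recharges HSP70 with ATP, read 10.76, 10.76 and 11.01 untreated. It differed by 0.02 at the 10 nm high dose (95% confidence interval -0.23 to 0.27) and by -0.17 at the 500 nm high dose (-0.42 to 0.08). Hsp90aa1, the inducible HSP90, was the flattest of the members, with group means spanning 0.10. Its differences at the high doses were 0.09 (-0.17 to 0.36) with 10 nm and 0.02 (-0.25 to 0.29) with 500 nm silica, and another of its 3 probe sets gave 0.34 at the 10 nm high dose (adjusted p = 0.066).

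The mitochondrial pair also passed no test. Hspd1 differed by -0.11 (95% confidence interval -0.28 to 0.07) at the 10 nm and -0.03 (-0.20 to 0.15) at the 500 nm high dose. Hspe1 differed by -0.19 (-0.40 to 0.02) and -0.15 (-0.36 to 0.06). For these 4 genes the confidence intervals of the brightest probe sets at the high doses lay between -0.42 and 0.36. The rise of Dnajb1 at 10 nm was 0.84. Other probe sets of Hsph1 and Hspe1 were less precise. For Hsph1, 1423566_a_at gave -0.09 ± 0.44 at the 10 nm and 0.02 ± 0.44 at the 500 nm high dose (log2 difference ± SE). For Hspe1, 1422579_at gave -0.19 ± 0.19 and 0.18 ± 0.19. Of the 6 genes with an exact pair of units in the promoter window shown above, only Hspa1b passed a test in any comparison. Dnajb1, with no exact match there, did so in several. Hspa8 and Hsp90aa1 had no promoter to search, Hspa1a lay close to the floor, and Hspd1 and Hspe1 share their match. Whether the matches bear on the changes was not tested.

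**Figure D3:**
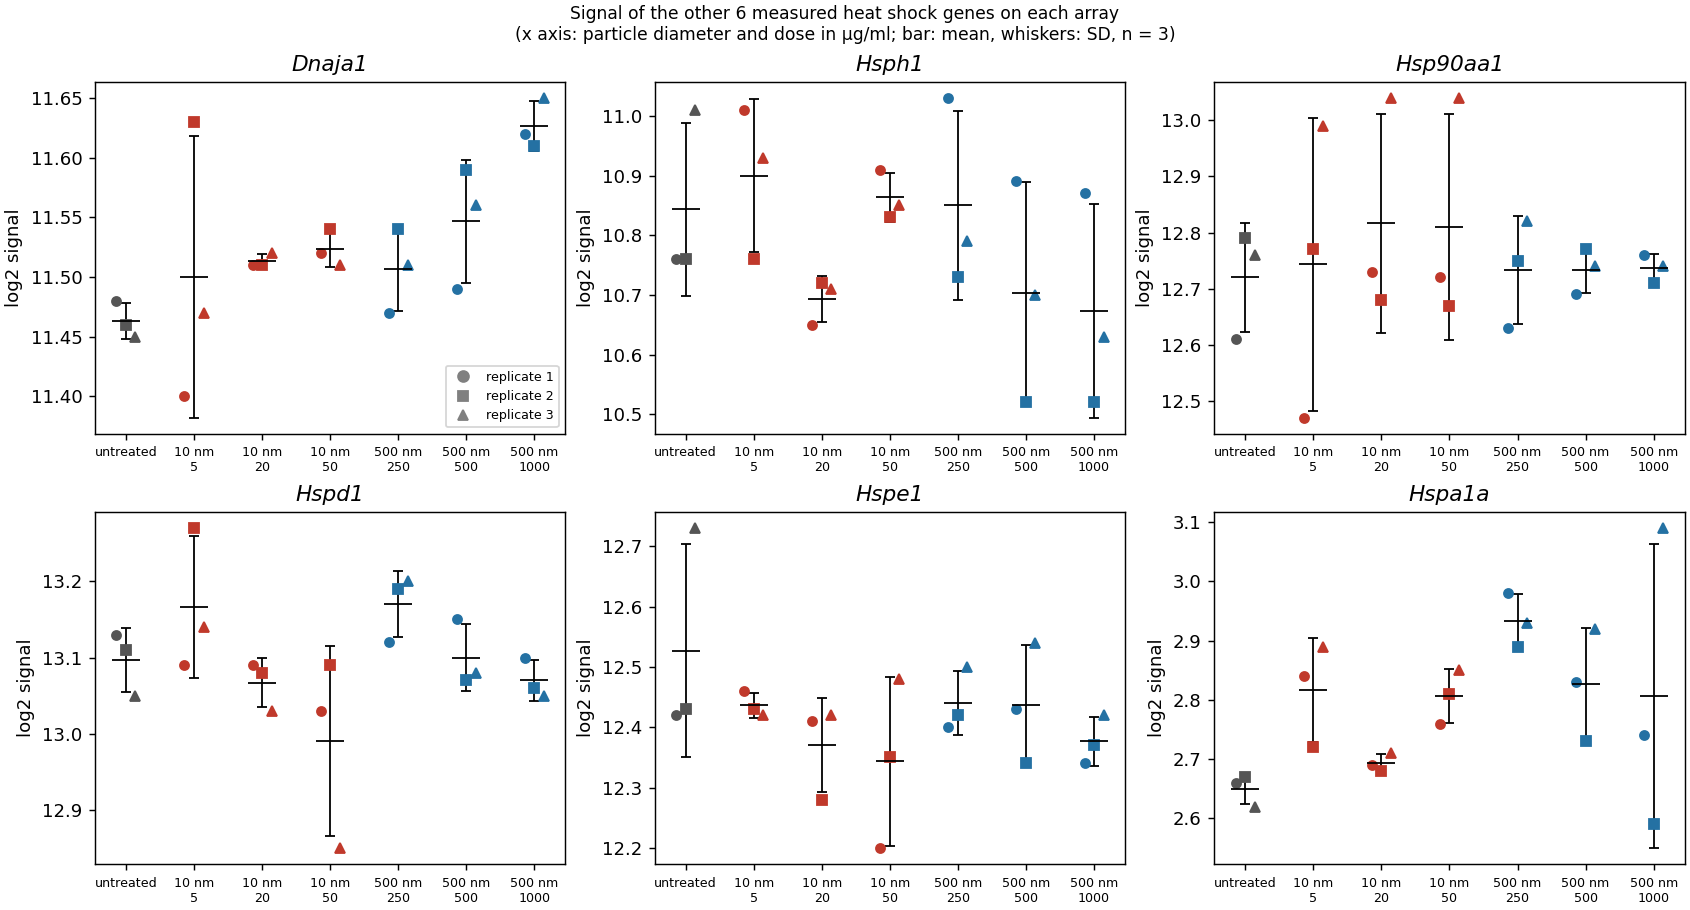
Log2 signal (y axis, a separate scale for each gene) of Dnaja1, Hsph1, Hsp90aa1, Hspd1, Hspe1 and Hspa1a on each of the 21 arrays, by particle diameter and dose in µg/ml (x axis), with the group mean as a bar and the SD as whiskers (n = 3). Group means of Hsp90aa1 span 0.10 and those of Dnaja1 0.16, with Dnaja1 highest at 1000 µg/ml of 500 nm silica.

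The members called (adjusted p under 0.05) at each dose against untreated cells are given with the share of all genes called. At the low doses 0 of 9 were called, with 1 (10 nm) and 2 (500 nm) at an unadjusted p under 0.05 by limma, and 0.767% and 0.428% of all genes were called. At the 10 nm mid dose 1 of 9 was called, a rise, against 3.22% of all genes called higher and 10.6% in either direction. At the 10 nm high dose 2 of 9 were called, both rises, against 7.58% higher and 20.2% in all. At the 500 nm mid dose limma called 0 of 9, also at an unadjusted p under 0.05, against 2.77% of all genes. At the 500 nm high dose 1 of 9 was called, a fall, against 10.0% lower and 15.3% in all. The slope over the 10 nm doses was called for 3 of 9, all rising, against 3.13% rising and 12.2% in all. That over the 500 nm doses was called for 0 of 9, with 1 at an unadjusted p under 0.05, against 8.20% of all genes.

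The median change of the 9 members was 0.09 at the 10 nm high dose and 0.02 at the 500 nm high dose, beside medians of 0.04 and 0.07 over all genes. The arrays of dose and control did not overlap for 1, 5 and 4 members from the low to the high dose of 10 nm silica, where 11.7%, 26.9% and 33.3% of all genes did not. With 500 nm silica the members were 1, 2 and 3, where 12.3%, 17.7% and 31.1% of all genes did not overlap. Hspa1a, close to the floor, was among them at each 10 nm dose and was the only one at both low doses. All lay above untreated cells except Hsph1 at the 10 nm mid dose and Hspa1b at the 500 nm high dose, which lay below.

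The particle sizes were compared at matched nominal area and at the highest doses used. At the low doses 0 of 9 members differed by limma, also at an unadjusted p under 0.05, against 0.0888% of all genes. For Dnajb1 the difference, 10 nm minus 500 nm, was -0.14 (95% confidence interval -0.43 to 0.15), and no member was free of overlap, against 10.3% of all genes. At the other equal area, the 10 nm mid and 500 nm high doses, 0 of 9 were called, with 2 at an unadjusted p under 0.05, against 2.85% of all genes. Those were Hspa1b, higher by 0.81 with 10 nm silica (0.35 to 1.27, adjusted p = 0.0507), and Dnajb1, higher by 0.39 (0.10 to 0.68, adjusted p = 0.184). Both were without overlap, as were 3 members in all, against 18.5% of all genes. By other probe sets, Hspa8 differed by 1.83 (1431182_at, adjusted p = 4.9e-07) and Hspa1b by 0.57 (1427127_x_at, adjusted p = 0.0374) and 0.41 (1427126_at, adjusted p = 0.334).

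Between the high doses, which differ in nominal area, 2 of 9 members were called, both higher with 10 nm silica, against 3.37% of all genes higher and 7.52% in all. Hspa1b differed by 1.08 ± 0.22 (adjusted p = 0.00394, 95% confidence interval 0.63 to 1.54), the lowest 10 nm array at 8.59 and the highest 500 nm array at 7.92. With 1 array left out at a time the difference ran from 0.92 to 1.19 and its adjusted p reached at most 0.0254. The other Hspa1b probe sets gave 0.70 (adjusted p = 0.00514) and 0.55 (adjusted p = 0.08). Dnajb1 differed by 0.58 ± 0.14 (adjusted p = 0.0131, 1.49-fold), again without overlap, as for 4 members against 21.4% of all genes. Its call was lost without replicate 3 of the 10 nm high dose (0.47, adjusted p = 0.072) or replicate 2 of the 500 nm high dose (0.45, adjusted p = 0.0914), and its other probe set gave 0.40 (adjusted p = 0.521). For Hspa8 the difference was 0.18 (-0.01 to 0.36, adjusted p = 0.265) by the brightest probe set and 2.16 (adjusted p = 2.92e-08) by 1431182_at.

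**Figure D4:**
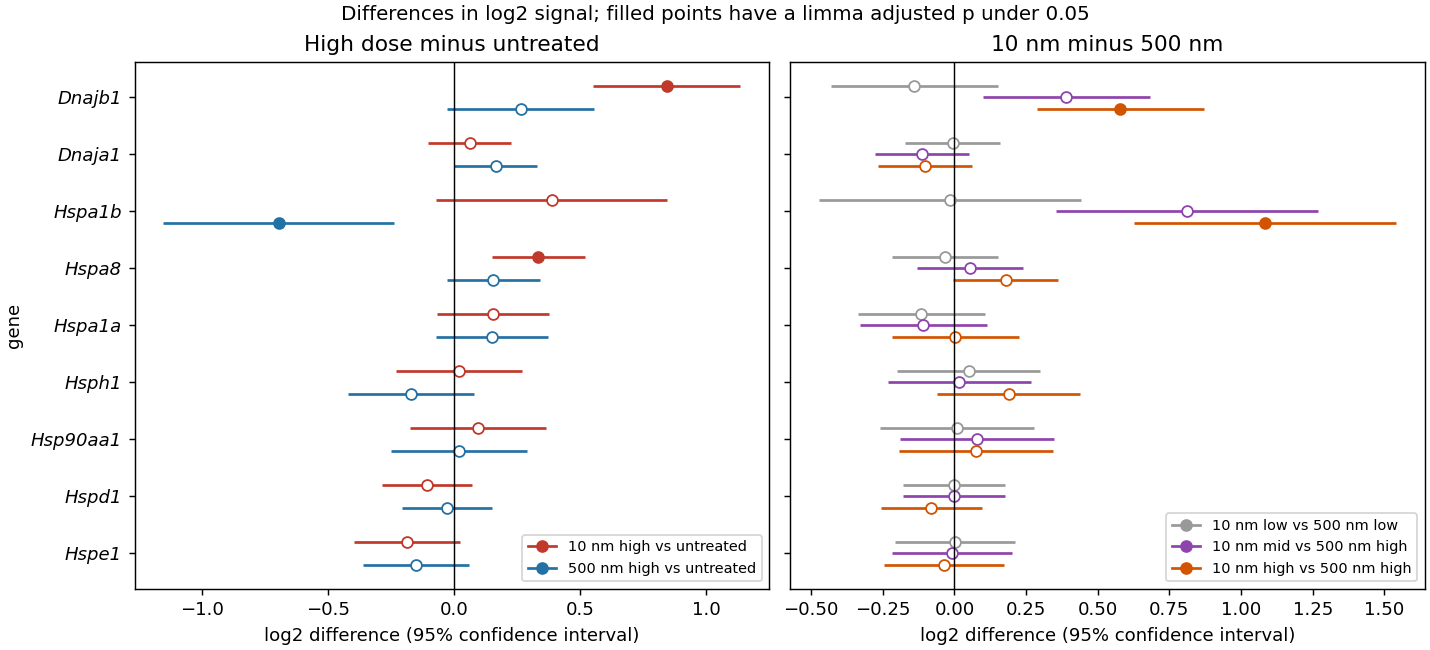
Log2 differences (x axis) of the 9 measured heat shock genes (y axis) with 95% confidence intervals, for both high doses against untreated cells on the left and for 10 nm minus 500 nm silica at 3 pairs of doses on the right. Filled points have an adjusted p under 0.05: Dnajb1 at 0.84 and Hspa8 at 0.33 with 10 nm silica, Hspa1b at -0.69 with 500 nm silica, and Hspa1b at 1.08 and Dnajb1 at 0.58 between the sizes.

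The other genes of the chaperone network were taken from 5 lists of 87 genes, 77 of them measured, and 7 of the 77 were called at the 10 nm high dose (3 higher, 4 lower), where 20.2% of all genes were, and 12 at the 500 nm high dose (6 higher, 6 lower), where 15.3% were. Among the partners of HSP70 and HSP40, 23 of 25 measured, 0 rose and 2 fell at the 10 nm high dose, and 2 rose and 3 fell at the 500 nm high dose, with medians of -0.07 and 0.10. Bag2, an inhibitor of the HSP70-bound ubiquitin ligase CHIP, fell by 0.76 (adjusted p = 3.61e-05) and 0.55 (adjusted p = 0.000969). Bag4, another HSP70 nucleotide exchange factor, fell by 0.67 (adjusted p = 6.54e-05) and 0.38 (adjusted p = 0.0116). Neither was past the test between the sizes (adjusted p = 0.284 and 0.0832). Bag5 rose by 0.49 at the 500 nm high dose (adjusted p = 0.00374). Dnaja2, a J-domain relative of Dnaja1, stood at 0.43 there (adjusted p = 0.0247), a call lost in 4 of 6 fits that left out 1 array (adjusted p up to 0.0815), and its other probe set stood at -0.10 (adjusted p = 0.678).

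Of 16 measured HSP90 co-chaperones, limma called 0 at the 10 nm high dose, with 1 at an unadjusted p under 0.05, against 20.2% of all genes called. At the 500 nm high dose 3 were called lower, against 10.0% of all genes. Cdc37l1, a relative of the kinase co-chaperone Cdc37, fell by 1.04 there by its brightest probe set (adjusted p = 0.00131), while its other probe sets stood at -0.17 (adjusted p = 0.291) and -0.13 (adjusted p = 0.789). Tsc1, at -0.66, and Fkbp5, at -0.46, lost their calls in 4 and 5 of 6 fits that left out 1 array (adjusted p up to 0.238 and 0.17). Their other probe sets stood at 0.21 (Tsc1, adjusted p = 0.216) and 0.10 (Fkbp5, adjusted p = 0.816), opposite in sign. Among 10 measured mitochondrial chaperone genes 2 fell at the 10 nm high dose, against 20.2% of all genes called in either direction and 7.58% called higher. Dnaja3 fell by 0.42 (adjusted p = 0.0205, up to 0.0695 with 1 array left out) and Hspb11 by 0.63 (adjusted p = 0.00315). Hspb11 is known as a subunit of intraflagellar transport. Grpel2, a nucleotide exchange factor of the mitochondrial HSP70, stood at -0.25 (adjusted p = 0.144). At the 500 nm high dose 0 of the 10 were called by limma, with 1 at an unadjusted p under 0.05, against 15.3% of all genes called. Of 12 measured subunits of the cytosolic chaperonin and prefoldin, limma called 0 in every comparison, and at most 1 had an unadjusted p under 0.05. Pfdn2, at 0.46 with the 500 nm high dose, was nearest (adjusted p = 0.0889), and Vbp1 stood at -0.33 with the 10 nm high dose (adjusted p = 0.15) and Cct2 at 0.21 with the 500 nm high dose (adjusted p = 0.35).

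The list of small heat shock proteins and other HSF1 targets, 17 of 21 measured, held the largest changes of the 5, although its risers were mostly no chaperones. The lists were chosen with earlier results of these data known, so this ranking is a description only. Whether HSF1 had a part in these changes was not tested. At the low doses 3 were called with 10 nm silica, all rises (Zfand2a, Ier5 and Rgs2), against 0.767% of all genes. With 500 nm silica 0 were called there, against 0.428%, and 4 had an unadjusted p under 0.05 by limma. Zfand2a, Ier5 and Rgs2 stood at 1.13, 0.62 and 0.61 with 10 nm silica at the low dose. With 500 nm silica they stood at 1.06, 0.35 and 0.40 (adjusted p = 0.0664, 0.335 and 0.143). Between the sizes at the low doses they differed by 0.07, 0.28 and 0.21, none past the test. At the 10 nm high dose 3 rose and 0 fell, against 7.58% of all genes called higher. At the 500 nm high dose 4 rose and 0 fell, against 15.3% of all genes called in either direction and 10.0% called lower. Zfand2a, which tunes the proteasome under stress, rose by 1.92 ± 0.24 with 10 nm (adjusted p = 1.25e-05) and 2.27 ± 0.24 with 500 nm silica (adjusted p = 1.68e-06), and the sizes differed by -0.36 ± 0.24 (adjusted p = 0.453). Ier5, an immediate-early gene, rose by 1.70 and 1.24 (adjusted p = 1.08e-09 and 9.46e-08), and was 0.47 higher with 10 nm silica (adjusted p = 0.00892), or -0.10 by its probe set of highest SD. Rgs2, a regulator of G protein signalling, rose by 1.32 and 1.09 (adjusted p = 2.65e-08 and 3.85e-07). Sqstm1, the autophagy receptor p62, rose by 1.62 at the 500 nm high dose (adjusted p = 0.00182) and stood at 0.69 at the 10 nm high dose (adjusted p = 0.138), with -0.92 between the sizes (adjusted p = 0.104). Hsf1 itself was not analysed here.

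The genes whose 7 group means followed Dnajb1 most closely were Ccl7, a chemokine (Pearson r = 0.992), Cdo1, cysteine dioxygenase (0.989), Pcf11, a transcription termination factor (0.988), Crabp2, a retinoic acid carrier (0.987), and Ythdf3, a reader of methylated RNA (0.986). These are descriptions over 7 group means that share the untreated arrays and the processing. The group means were 4.64 to 5.61 for Ccl7, 3.80 to 4.73 for Cdo1 and 3.50 to 4.07 for Crabp2. All of these lay below the median gene level of 6.66, and those of Pcf11 and Ythdf3 above it. Ccl7 stood at 0.79, 0.86 and 0.26 against untreated cells at the 10 nm mid, 10 nm high and 500 nm high doses, where Dnajb1 stood at 0.65, 0.84 and 0.26.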

How the data were processed

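Per the labels' protocols, RNA was copied from an oligo-dT primer and hybridised in biotinylated form. The submitters' processing notes name RMA, without version or settings, and the deposited values are log10 signals. The base was read from the range of values (0.641 to 4.34), and they were multiplied by 3.32 to give log2 signals, so fold changes rest on that reading. RMA compresses changes of dim probe sets. Of 22690 probe sets, 20380 with 1 symbol gave 12393 genes. limma 3.58.1 in R 4.3.3 was fitted on all genes and 21 arrays with group as the only factor (14 residual and 4.80 prior degrees of freedom), with two-sided tests and Benjamini-Hochberg adjustment over all genes; a gene was called at an adjusted p under 0.05. The 12 tests were the F test over 7 groups, 6 doses against untreated cells, 3 size pairs and 2 slopes on log2 dose. The script was tested on simulated data.

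Every member was named, as were the 3 genes of smallest F-test p in each chaperone list and the 5 genes with the highest correlation to the member of smallest F-test p. Bag5, Sqstm1, the macrophage markers Itgam and Mrc1 and the Hspa8 probe set 1431182_at were singled out after their values were seen. Members and lists were chosen with earlier results of these data known. Alternatives were a replicate block, median centring, quantile normalization, a filter on dim genes, array weights, other probe set rules and leaving out arrays. The labels do not say whether replicate numbers pair the samples, and the main fit did not pair them. Arrays have no read depth, and their number limits the precision. Python 3.11.15 with matplotlib 3.10.9 made the figures.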

Additional observations from a re-analysis of the deposited data

Results flagged for a closer look

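Hspa1b and Dnajb1 differed between the particle sizes at the high doses, by the test of the difference itself. The log2 difference, 10 nm minus 500 nm, was 1.08 for Hspa1b and 0.58 for Dnajb1, each higher on all 3 of the 10 nm arrays. The Dnajb1 call was lost in 2 of 6 fits that left out 1 array (limma adjusted p up to 0.0914). The other Dnajb1 probe set gave 0.40 (adjusted p = 0.521). The high doses differ in nominal surface area, so size and area cannot be told apart there. At equal nominal area (10 nm mid and 500 nm high dose) the differences were 0.81 and 0.39 and did not pass the test by the brightest probe sets, though 1 other Hspa1b probe set did (0.57, adjusted p = 0.0374). With the replicate block both genes were called there.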

How the results depend on the processing

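The count of called members at the 10 nm high dose was 2 and ran from 1 to 3 with 1 array left out. That at the 500 nm high dose (1) ran from 0 to 1, that between the high doses (2) from 1 to 2. The labels do not say whether replicate numbers pair the arrays, and the main fit did not pair them. Of 63 same-number pairs, 51 deviated together at a correlation over 0.1 (range -0.24 to 0.76). The median correlation was 0.46 for the same number and -0.26 for different numbers. Deviations from a group mean cancel within the group, so the second value largely follows from the first and is no separate hint. The SD over genes was lowest on the replicate 3 array of every group. Of 21 arrays, 15 correlated best with their own number, a hint of pairing from the data and not the design. With the replicate block the counts were 2 at the 500 nm high dose, 2 between the 10 nm mid and 500 nm high doses, and 1 for the 500 nm slope. With array weights, whose fit stopped short of full convergence, they were 3 at the 10 nm mid dose, 1 at the 500 nm mid dose, 4 at the 500 nm high dose, 1 between mid and high, and 2 for the 500 nm slope. With the probe set of highest SD they were 2 (10 nm mid), 2 (500 nm high), 1 (mid against high) and 1 (500 nm slope), and with the mean of all probe sets 2, 3, 2 and 2; both take in the Hspa8 probe set 1431182_at. Quantile normalization left 0 at the 500 nm high dose, and leaving out dim genes gave 1 between mid and high. Without every replicate 3 array, chosen after seeing the data, the counts were 0 at the 500 nm high dose and 1 between mid and high. Shares of all genes called under these settings are not given here, so these counts cannot be set against a general change in calls. Under the highest-SD rule Fkbp5 at the 500 nm high dose stood at 0.10 and the size difference of Ier5 at -0.10. Neither value passed the test by limma over all probe sets (adjusted p = 0.816 and 0.957). The cause of these shifts was not tested. The rise of Dnajb1 at the 10 nm high dose stayed between 0.74 and 0.99 with 1 array left out.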
